A study of Mus musculus with 11 samples.

Results

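The 10 genes examined here encode subunits and partners of the Polycomb repressive complexes: *Ezh1*, *Ezh2*, *Eed*, *Suz12* and *Jarid2* of PRC2, and *Rnf2*, *Ring1*, *Bmi1*, *Pcgf6* and *Kdm2b* of PRC1. They were picked by symbol, and each symbol matched exactly 1 of the 54146 genes in the RSEM tables. All 10 had a mean normalised count above 10, so all were tested. Single-embryo RNA-seq was performed on 11 embryos of the C57BL/6 strain at the 8-cell stage (E2.5), each taken from the oviduct of a heterozygous mother mated to a heterozygous father. The 5 mutants were *Prdm10* KO, lacking an exon on both alleles in every cell. The 6 controls were *Prdm10* WT/HET, so wild-type embryos and carriers of 1 deleted allele were not told apart. Embryos had been sorted into these groups by detection of the deleted exon in their own cDNA. Batch 1 was pre-amplified with 16 PCR cycles (3 controls, 2 mutants) and batch 2 with 13 (3 controls, 3 mutants). No label says which embryos were littermates, so p-values measure the spread between these embryos. Each library held 1 whole embryo, and fewer cells with a transcript cannot be told apart from less of it per cell.

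PRC2 methylates lysine 27 of histone H3. EZH1 or EZH2 is its catalytic subunit, EED reads the mark and is needed for activity, and SUZ12 holds the complex together. PRC1 ubiquitinates histone H2A through RNF2 (RING1B) or RING1, paired with a member of the PCGF family that sets the type of complex, such as BMI1 (PCGF4) in canonical PRC1 and PCGF6 in a variant form. KDM2B brings the PCGF1 form to unmethylated CpG islands. In early mouse embryos these complexes carry maternal marks through cleavage and later hold developmental regulators silent.

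Transcripts of both complexes were present in the 8-cell embryo, and the catalytic paralogs of each were at very unequal levels. *Eed* was the most abundant of the 10 genes, with a mean of 228 ± 51.9 TPM in controls (SD, n = 6). TPM is a transcript level corrected for gene length, so it allows genes to be compared. *Ezh2* was present at 117 ± 24.4 TPM (SD, n = 6) against 6.03 ± 3.05 (SD, n = 6) for *Ezh1*, and *Rnf2* at 105 ± 23.4 (SD, n = 6) against 1.82 ± 1.65 (SD, n = 6) for *Ring1*. Between mutants and controls, 0 of the 10 genes passed the threshold, against 1.45% of all genes tested. The estimates farthest from 0 were a log2 fold change of -1.12 for *Bmi1*, 0.54 for *Jarid2*, -0.48 for *Pcgf6*, -0.45 for *Ezh1* and 0.44 for *Eed*.

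The summed expected counts per library ran from 3534735 to 8265840. The targeted gene, *Prdm10*, had 236 ± 85.2 normalised counts in controls (SD, n = 6) and 151 ± 39.4 in mutants (SD, n = 5), with 2 of 5 mutants below every control, and it was not called (log2 fold change -0.66, DESeq2 adjusted p = 0.215). Its effective length was 3011 ± 334 bases in controls and 4746 ± 326 in mutants, and its TPM, which divides by that length, was 16.5 ± 4.62 and 6.66 ± 1.47. Because the embryos were sorted by this gene's cDNA, these values describe the sorting and are no separate check of genotype. Markers of the embryo were present, and 8 of 10 were above 1 TPM in every library. Of the 9 that were tested, *Klf5* (log2 fold change 0.84) and *Krt18* (1.85) were called higher in mutants and 0 lower, and their part in the values of the Polycomb genes was not tested. Among tissues that could have come with the embryo, 2 of 4 cumulus markers (*Has2* and *Ptx3*) were at 0 in every library, and the 4 markers summed to at most 0.3 TPM. The 4 stromal markers summed to at most 0.29 TPM in controls and 4.94 in mutants, and the 4 blood markers to at most 10.9 TPM in controls and 1.95 in mutants. The 5 oviduct markers summed to 36.7 to 73.4 TPM in controls and 31.7 to 56.8 in mutants. Of these *Epcam*, which the embryo expresses as well, held 35.9 to 54.4 TPM in controls and 22.1 to 44.9 in mutants, and *Ovgp1*, specific to the oviduct, at most 24.2 and 30.1.

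In controls the 10 genes spanned 125-fold in mean TPM. *Eed* ranked above 93.6% of the genes with a mean normalised count above 10, *Ezh2* above 88.1%, and *Suz12*, which was present at 110.0 ± 50.3 TPM (SD, n = 6), above 87.3%. The PRC1 enzyme *Rnf2* stood above 86.7% of genes and the CpG island reader *Kdm2b*, at 89.1 ± 32.1 TPM (SD, n = 6), above 84.8%. *Pcgf6* followed at 68.2 ± 20.2, *Jarid2*, the substoichiometric PRC2 partner that helps it to chromatin, at 43.2 ± 19.98, and *Bmi1* at 25.3 ± 19.7 TPM (SD, n = 6 each). *Ezh1* and *Ring1* came last, above 34.7% and 12.0% of genes.

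Neighbours in this order were compared within each embryo by a two-sided exact sign-flip permutation test, 9 pairs in all. The order came from the same controls, so which gene of a pair came first was picked from the values tested. For 3 pairs the order held in 6 of 6 controls: *Eed* over *Ezh2* (mean log2 ratio 0.95), *Bmi1* over *Ezh1* (1.78) and *Ezh1* over *Ring1* (1.40). Each of these had an exact p of 0.0312, the smallest that 6 embryos allow, and an adjusted p of 0.0938. No pair passed after adjustment, and so few embryos left little room to pass. Over all 11 embryos, 5 of 9 pairs passed, and the same 3 pairs held the order in 11, 11 and 10 of 11 embryos. These 11 include the controls that set the order, so they give no separate support for it. *Ezh2*, *Suz12* and *Rnf2* could not be ranked, with the order kept in only 3 of 6 controls for each neighbouring pair. For *Suz12* the split followed batch, with its TPM above those of *Ezh2* and *Rnf2* in 3 of 3 controls of batch 2 and below both in 3 of 3 controls of batch 1. *Pcgf6* over *Jarid2* (4 of 6 controls) was not separated over all 11 embryos either (adjusted p = 0.477, exact permutation test).

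**Figure D1:**
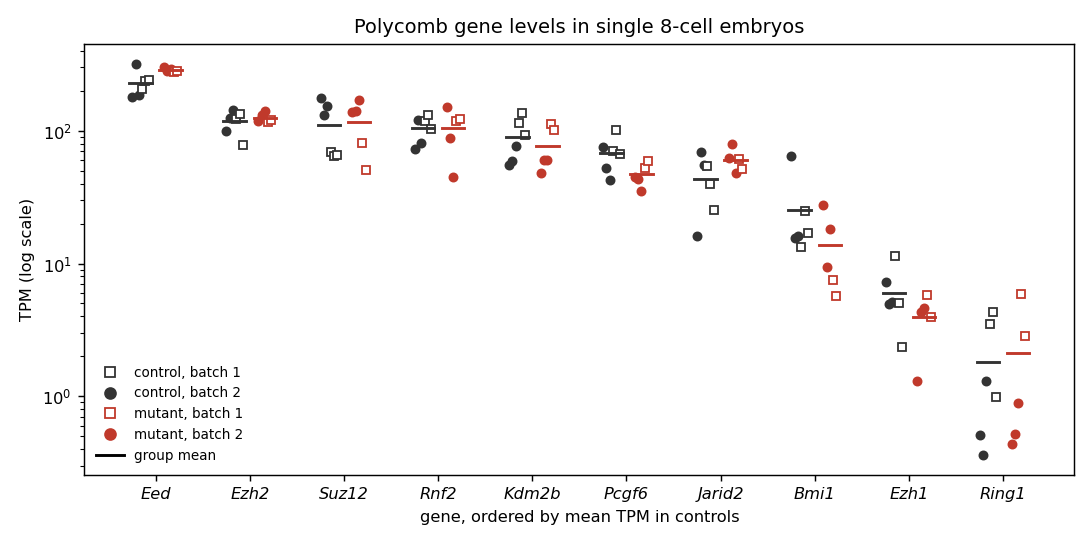
TPM of the 10 genes in each embryo on a log scale, ordered by the mean in controls; squares are batch 1, circles batch 2, and bars are group means. *Eed* lies at the top from 180 to 320.5 TPM, while *Ezh1* and *Ring1* stay below 12 TPM in every embryo.

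The spread between control embryos differed among the 10 genes. The coefficient of variation of TPM was 20.8% for *Ezh2*, 22.3% for *Rnf2* and 22.7% for *Eed*, against medians of 26.9%, 27.7% and 22.95% for genes of similar level. It was 77.9% for *Bmi1*, against a median of 36.5% over 1392 genes of similar level, and 90.6% for *Ring1*, against 68.0% over 1144 genes. For *Suz12* it was 45.7%, against 27.2%. The high values of *Bmi1* and *Suz12* are broken down below by embryo and batch.

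Mutants were set against controls to ask whether the supply of Polycomb transcripts depended on PRDM10 a day before mutant embryos fall behind. Counts were compared over all genes by DESeq2 with batch as a term, and a gene was called changed at an adjusted p under 0.05 and a mean normalised count above 10. Of 10448 genes, 151 were called (1.45%), and 0 of the 10 Polycomb genes. The edgeR quasi-likelihood test also called 0 of the 10, against 0.271% of genes. At an unadjusted p under 0.05, DESeq2 gave 3 of the 10 (*Eed*, *Bmi1* and *Pcgf6*) against 11.9% of all genes, and edgeR gave the same 3 against 8.7%. The median log2 fold change of the 10 was 0.04, and that of all genes with a mean normalised count above 10 was -0.0006. By normalised counts, the mutants lay above every control of their batch in both batches for 1 of the 10 genes, *Eed* (1.33% of all genes), and below in both for 0 (1.41%). In batch 1, 3 of the 10 were lower (11.7% of all genes) and 2 higher (11.8%), and in batch 2, 0 were lower (6.36%) and 1 higher (6.63%).

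**Figure D2:**
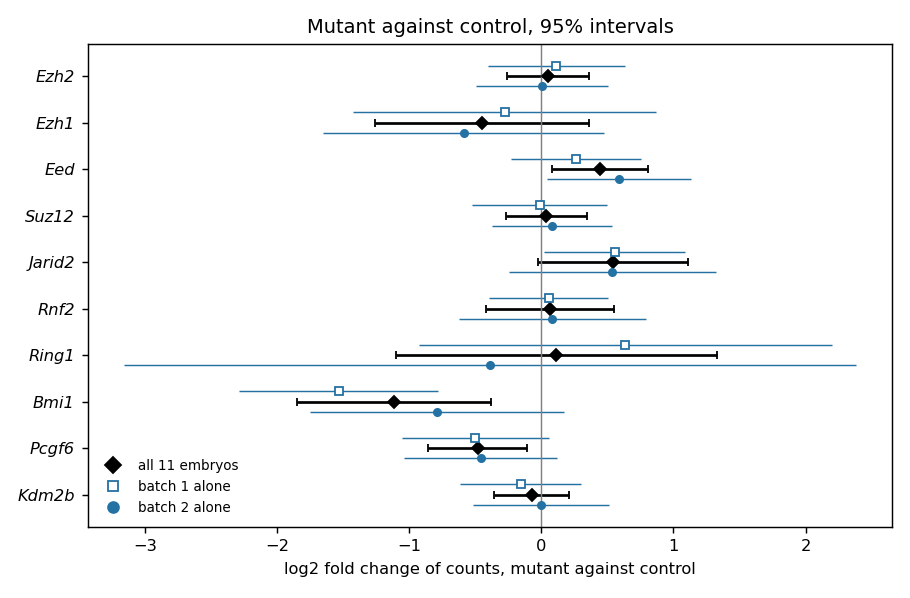
Log2 fold change of normalised counts, mutant against control, for each gene with its 95% interval; diamonds are the fit over all 11 embryos, squares batch 1 alone and filled circles batch 2 alone. The interval over all embryos leaves out 0 for *Eed*, *Bmi1* and *Pcgf6*, and none of the 10 had an adjusted p under 0.05.

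*Eed* (ENSMUSG00000030619.9, chromosome 7 from 89954654 to 89980983, GRCm38, minus strand) was the only 1 of the 10 genes on the study's list of genes bound by PRDM10, made in mouse embryonic stem cells. Of all genes tested, 3.12% (326) were on it, and 121 of these had a log2 fold change above 0. Of the 92 genes called lower, 39 were on the list. Its RefSeq promoter window, from 250 bases before to 50 after the transcript start, lies inside the listed peak. The 250 bases before the start (chr7:89980977-89981226, GRCm38.p6, written along the minus strand) are shown because they are the only PRDM10-bound promoter sequence among the 10 genes. Capitals mark TGGT, the left run of bases that the mutated probe below changes, which occurs once here counting both strands. The share of all promoter windows with so short a stretch was not counted, so it is not read as a binding site.

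Eed promoter: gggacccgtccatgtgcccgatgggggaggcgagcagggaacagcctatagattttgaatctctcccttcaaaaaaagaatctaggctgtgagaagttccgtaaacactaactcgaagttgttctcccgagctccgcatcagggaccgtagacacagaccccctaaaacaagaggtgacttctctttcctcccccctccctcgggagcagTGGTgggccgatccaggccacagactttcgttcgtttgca

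The letters searched for were read from the study's gel shift probes. In these, 8 of 28 bases differ between the wild-type probe that PRDM10 bound and the mutated probe. The study found its motif by a search of its PRDM10 binding sites, and that full motif was not searched for here. The probes are shown so that these letters can be set against the promoter, with the bases that differ in capitals.

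WT probe: ctggcacagTGGTcgcGCCCggcccgcc
MUT probe: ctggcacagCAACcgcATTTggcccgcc

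These bases spell TGGTNNNGCCC. It was searched on both strands of the 32851 RefSeq promoter windows of GRCm38.p6, of which 476 (1.45%) hold it. The 10 genes have 14 windows (4 for *Kdm2b*, 2 for *Jarid2*), and 0 of the 14 hold it. A looser form, TGGTNNNNNCC, was in 13.8% of all windows and also in 0 of the 14. No match says only that these letters are not in these windows.

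The TPM of *Eed* in controls was lowest at 180, with a median of 222 and a highest value of 320.5. In mutants it was 302, 281 and 290.1 in batch 2 and 274.5 and 281 in batch 1. The mutants were tightly grouped, at 286 ± 10.8 (SD, n = 5), and lay above 5 of the 6 controls, while control replicate 2 was above them all. On the scale of normalised counts, controls ran from 731 to 1352 with a median of 875, and mutants were at 1439, 1520 and 1413 in batch 2 and 1105 and 1096 in batch 1. On that scale every mutant was above every control of its own batch. The log2 fold change was 0.44 ± 0.18 (SE; 95% interval 0.08 to 0.81), a 1.36-fold higher count, with a DESeq2 p of 0.0163 and an adjusted p of 0.273. It was 0.26 in batch 1 alone and 0.59 in batch 2 alone, and the interaction of batch and group was not called (unadjusted p = 0.381 in DESeq2). Leaving out control replicate 2, the library with the lowest summed counts, raised it to 0.58 (DESeq2 adjusted p = 0.0497). That fit called 265 genes, against 151 over all embryos. So 1 library decided whether DESeq2 called *Eed*, and the edgeR adjusted p over all embryos was 0.439.

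The effective length of *Eed*, which RSEM derives from the isoforms to which reads are assigned, did not pass its test over all genes (limma adjusted p = 0.865). The groups did not overlap in batch 2 and overlapped in batch 1. The share of all genes whose length separates the groups in batch 2 was not counted. In batch 2 it was 816, 867 and 852 bases in controls and 967, 1038 and 971 in mutants. In batch 1 it was 937, 890 and 955 bases in controls and 952 and 891 in mutants. TPM divides the count by this length. With an offset for effective length the log2 fold change of counts was 0.34 (DESeq2 adjusted p = 0.425).

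**Figure D3:**
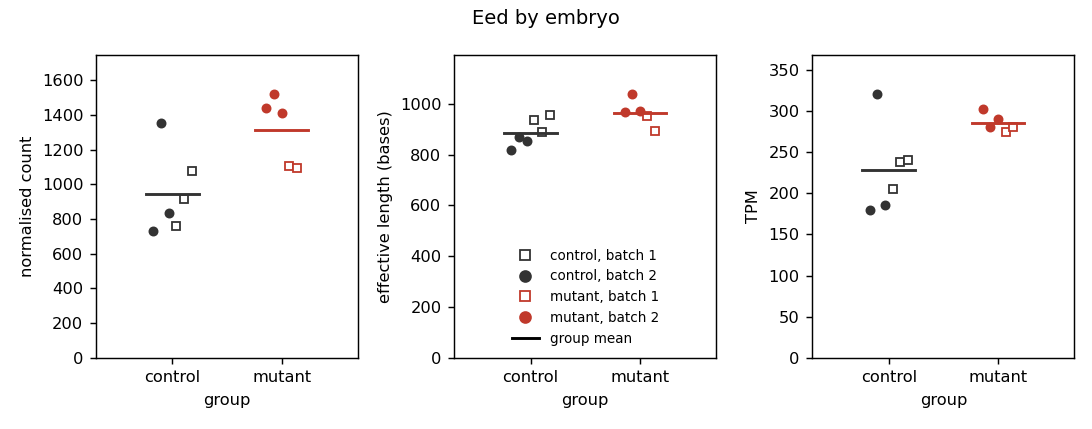
*Eed* in each embryo as normalised count, effective length in bases and TPM, with squares for batch 1, circles for batch 2 and bars for group means. Mutants reach 1520 normalised counts and lie between 274.5 and 302 TPM, and control replicate 2 stands apart from the other controls at 320.5 TPM.

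*Ezh2* (ENSMUSG00000029687.16, chromosome 6 from 47530139 to 47595341), the main methyltransferase of dividing cells, was close to level. Controls ran from 78.2 to 144 TPM with a median of 124, and mutants were at 117, 132, 141, 116 and 120.2. The mutants fell within the range of controls, and their log2 fold change of 0.05 ± 0.16 (SE) had a 95% interval of -0.26 to 0.36, which is 0.84-fold to 1.28-fold. For *Ezh1* (ENSMUSG00000006920.14, chromosome 11), the paralog of non-dividing cells, controls ran from 2.37 to 11.4 TPM with a median of 5.11, and mutants were at 1.3, 4.3, 4.59, 5.78 and 3.97. Its log2 fold change of -0.45 ± 0.41 (SE) had an interval of -1.26 to 0.36, which includes 0. It was -0.18 without control replicate 4, the embryo with the highest TPM, and -0.24 without mutant replicate 1, the embryo with the lowest. The mean normalised count was 90.7 for *Ezh1* and 789 for *Ezh2*.

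*Suz12* (ENSMUSG00000017548.15, chromosome 11 from 79993106 to 80034123) differed with batch and not detectably with genotype. In batch 2 controls were at 177, 131 and 154 TPM and mutants at 139, 141 and 172. In batch 1 controls were at 68.6, 64.1 and 65.5 TPM and mutants at 80.2 and 50.8. The groups overlapped within each batch, and the batches did not overlap. The log2 fold change between mutants and controls was 0.04 ± 0.15 (SE; 95% interval -0.26 to 0.34). An antisense transcript, *Gm26563*, overlaps 12515 bases of *Suz12*, with a mean normalised count of 30.5 against 2110 for *Suz12*, and the protocol does not mark strand.

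*Jarid2* (ENSMUSG00000038518.15, chromosome 13 from 44729474 to 44921643) had a TPM between 16.1 and 69.0 in controls, with a median of 46.8, and of 62.6, 79.5, 48.2, 60.9 and 51.8 in mutants. By normalised counts both mutants of batch 1 were above its 3 controls, while batch 2 overlapped. All 5 mutants were above the mean of the controls of their own batch. The log2 fold change was 0.54 ± 0.29 (SE; 95% interval -0.03 to 1.11), with a DESeq2 p of 0.0612 and an adjusted p of 0.467. The low end of the controls was control replicate 1, at 400.2 normalised counts against 694 to 1682 in the others, and without it the log2 fold change was 0.34.

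Of the PRC1 enzymes, *Rnf2* (ENSMUSG00000026484.13, chromosome 1 from 151458004 to 151500955) had 73.0 to 132 TPM in controls with a median of 111, and 151, 88.1, 44.9, 119 and 123 TPM in mutants. The mutants of batch 2 held both the highest and the lowest value of all 11 embryos. Its log2 fold change was 0.07 ± 0.25 (SE; 95% interval -0.42 to 0.55). *Ring1* (ENSMUSG00000024325.8, chromosome 17) was the least abundant, with 0.36 to 4.29 TPM in controls and 0.44, 0.52, 0.89, 5.93 and 2.85 in mutants. Its mean normalised count was 16.9, and the 95% interval of its log2 fold change between mutants and controls ran from -1.10 to 1.33. *Rnf2* and *Trmt1l* overlap on opposite strands over 158 bases.

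*Bmi1* (ENSMUSG00000026739.13, chromosome 2 from 18677018 to 18686629, plus strand) had the lowest fold change of the 10. In batch 2 controls were at 64.7, 15.6 and 16.2 TPM and mutants at 27.7, 9.40 and 18.3. In batch 1 controls were at 13.4, 24.9 and 16.9 TPM and mutants at 7.54 and 5.74. In batch 1 the groups did not overlap, in batch 2 they did, and control replicate 1 stood far above all other embryos. All 5 mutants were below the mean of the controls of their batch by normalised counts, a mean that control replicate 1 raises in batch 2. The log2 fold change was -1.12 ± 0.37 (SE; 95% interval -1.85 to -0.38), which is 0.46-fold, with a DESeq2 p of 0.00288 and an adjusted p of 0.112.

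The call for *Bmi1* depended on the embryos included. In batch 1 alone, where DESeq2 called 0.755% of genes, it was called at -1.53 on the log2 scale (adjusted p = 0.0161). In batch 2 alone it was at -0.79 (adjusted p = 0.822). The interaction was not called (unadjusted p = 0.318 in DESeq2). Leaving out control replicate 1 moved the log2 fold change to -0.66 (adjusted p = 0.589), and leaving out control replicate 2, control replicate 3 or mutant replicate 1 moved it to -1.33, -1.31 and -1.36 with adjusted p of 0.0179, 0.0423 and 0.0331. The edgeR adjusted p over all embryos was 0.373.

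*Pcgf6* (ENSMUSG00000025050.7, chromosome 19 from 47033617 to 47050906) pairs with MGA, MAX and E2F6 in a variant PRC1 that silences germline genes. Its TPM in controls ran from 42.4 to 101.0 with a median of 68.8, and mutants were at 44.8, 43.0, 35.4, 52.7 and 59.5. In batch 1 both mutants were below its 3 controls by normalised counts (451 and 528 against 567, 885 and 636). In batch 2 mutants were at 447, 454 and 359 and controls at 761, 518 and 453, an overlap of 1 mutant with the lowest control. The log2 fold change was -0.48 ± 0.19 (SE; 95% interval -0.86 to -0.11), or 0.72-fold, with a DESeq2 p of 0.0118 and an adjusted p of 0.229. It was -0.50 in batch 1 alone and -0.46 in batch 2 alone, and its adjusted p stayed between 0.174 and 0.849 under every alternative run.

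*Kdm2b* (ENSMUSG00000029475.17, chromosome 5 from 122870665 to 122989823) was at 54.8 to 137 TPM in controls, with a median of 84.6, and at 47.9, 60.6, 60.6, 112 and 100.6 in mutants. By normalised counts both mutants of batch 1, at 1036 and 1053, were below its 3 controls, which ran from 1074 to 1317, and 11.7% of all genes tested had batch 1 mutants below its controls. Batch 2 overlapped. Its log2 fold change was -0.07 ± 0.14 (SE; 95% interval -0.36 to 0.21), so a rise beyond 1.16-fold or a fall beyond 0.78-fold lay outside the interval. *Kdm2b* and *Rnf34* overlap on opposite strands over 627 bases, with mean normalised counts of 889 and 554.

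*Bmi1* and *Pcgf6* were then placed among the 6 PCGF paralogs, each of which defines its own form of PRC1. In controls *Pcgf1* (170 ± 33.5 TPM) and *Pcgf5* (168 ± 24.3) made up 37.7% and 37.4% of the summed TPM of the family. *Pcgf6* made up 15.2%, *Bmi1* 5.23%, *Pcgf3* 4.22% and *Pcgf2*, the paralog of *Bmi1* in canonical PRC1, 0.271%. The same shares in mutants were 38.7%, 34.3%, 15.5%, 4.48%, 5.81% and 1.25%.

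*Pcgf1*, the PCGF that works with KDM2B, had a TPM of 139 to 230.2 in controls and of 127, 109, 114, 117 and 118 in mutants. The groups did not overlap in TPM, which held, with mutants lower, for 0.574% of all genes tested. *Pcgf5* had 140 to 196 TPM in controls and 146, 89.3, 79.7, 84.0 and 134 in mutants, which overlapped over all embryos. By normalised counts the mutants stayed below the controls of both batches for *Pcgf1*, as for 1.41% of all genes tested, and below those of batch 2 for *Pcgf5*, as for 6.36%. Their log2 fold changes were -0.53 ± 0.17 and -0.56 ± 0.19 (SE), with DESeq2 adjusted p of 0.0734 and 0.114, and edgeR adjusted p of 0.288 and 0.310. The summed TPM of the 6 paralogs, a sum set up after their values were seen, ran from 384 to 584 in controls and from 265 to 360 in mutants. It is given as a description with no test.

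**Figure D4:**
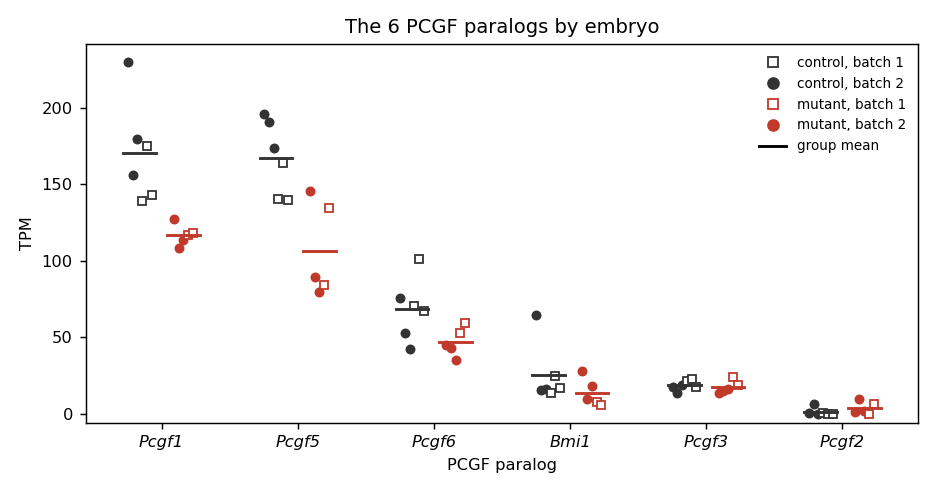
TPM of the 6 PCGF paralogs in each embryo, with squares for batch 1, circles for batch 2 and bars for group means. *Pcgf1* separates the groups, with mutants from 109 to 127 TPM and controls from 139 to 230.2, while *Bmi1* overlaps and has control replicate 1 alone at 64.7.

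The balance between paralogs was tested directly with the log2 ratio of TPM plus 1, by a two-sided exact permutation test within batches (200 relabellings) adjusted over 3 ratios. The median ratio of *Ezh2* to *Ezh1* was 26.0 in controls and 30.7 in mutants, and the log2 ratio was higher in mutants by 0.56 ± 0.34 (SE; p = 0.185, exact permutation test, adjusted p = 0.352). That of *Rnf2* to *Ring1* was 83.3 in controls and 50.4 in mutants, with a log2 difference of -0.22 ± 0.45 (SE; exact permutation p = 0.625). That of *Pcgf6* to *Bmi1* was 3.66 in controls and 4.57 in mutants, with a log2 difference of 0.45 ± 0.36 (SE; exact permutation p = 0.235, adjusted p = 0.352). None of the 3 ratios passed, and in every one the groups overlapped over all embryos. Within batch 2 the log2 ratios of *Ezh2* to *Ezh1* in mutants, 5.69, 4.65 and 4.67, lay above those of controls, 3.60, 4.41 and 4.56. Within batch 1 those of *Pcgf6* to *Bmi1* in mutants, 2.65 and 3.17, lay above those of controls, which began at 1.92 and reached 2.315. In the other batch of each pair the groups overlapped, and for *Rnf2* to *Ring1* they overlapped in both batches. These separations were picked out after no ratio had passed, and they are a description with no test. Without mutant replicate 1 the difference for *Ezh2* to *Ezh1* was 0.353, and that for *Pcgf6* to *Bmi1* was 0.273 without control replicate 1 or mutant replicate 2 and 0.285 without mutant replicate 5. The favoured paralog was above the other in 11 of 11 embryos for all 3 pairs, by at least 10.8-fold for *Ezh2*, 20-fold for *Rnf2* and 1.17-fold for *Pcgf6*.

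**Figure D5:**
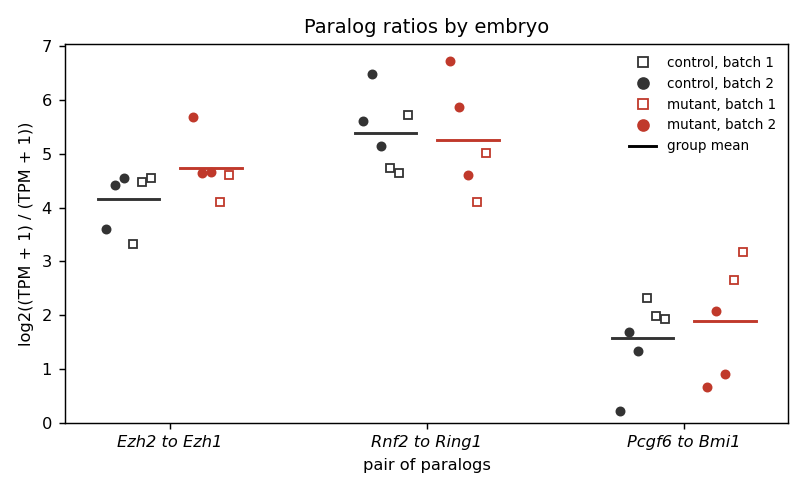
Log2 ratio of TPM plus 1 for 3 pairs of paralogs in each embryo, with squares for batch 1, circles for batch 2 and bars for group means. The *Ezh2* to *Ezh1* ratio runs from 3.33 to 5.69 and the *Pcgf6* to *Bmi1* ratio from 0.22 to 3.17, with mutants and controls overlapping in each pair when both batches are read together.

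The batches were then compared. Between batch 2 and batch 1, 4 of the 10 were called by DESeq2, a share near the 27.9% of all genes. *Suz12* was 2.70-fold higher in batch 2 (log2 1.43 ± 0.15 SE, adjusted p = 1.61e-17) and *Bmi1* 2.502-fold higher (1.32 ± 0.37, 0.00357). The *Bmi1* call was lost without control replicate 1 (0.88, adjusted p = 0.0577). *Ring1* was lower by -2.15 ± 0.62 on the log2 scale (adjusted p = 0.00414) and *Kdm2b* by -0.67 ± 0.14 (5.99e-05), and the *Ring1* call was lost without mutant replicate 4 (-1.84, adjusted p = 0.0505). In control embryos alone, where 14.5% of all genes were called, 2 of the 10 were called, *Suz12* (1.39, adjusted p = 8.01e-07) and *Kdm2b* (-0.74, adjusted p = 0.0326). Oviduct *Ovgp1* moved with batch too, with at most 0.81 TPM among controls and 0.33 among mutants in batch 1, but as much as 24.2 and 30.1 TPM in batch 2. Its part in the values of the Polycomb genes was not tested. PCR cycles and collection differ together between the batches and cannot be told apart.

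The difference between mutants and controls was itself compared between the batches through an interaction term. It was called for 0 of the 10 genes, against 0.0382% of all genes, and 0 of the 10 had an unadjusted p under 0.05 in DESeq2, against 4.3%.

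Effective length was tested by limma on the log2 scale, as a readout of isoform use that the count test does not use. The length of *Pcgf6* did not vary enough to be tested. Of the remaining 9 genes 0 were called, as were 0 of 8511 genes (0.0%), and 2 of the 9 (*Ezh1* and *Eed*) had an unadjusted p under 0.05, against 5.71% of all genes. *Ezh1* was at 3674 ± 325 bases in controls (SD, n = 6) and 4055 ± 94.3 in mutants (SD, n = 5), and *Eed* at 886 ± 52.5 and 964 ± 52.3. The limma adjusted p was 0.865 for each.

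The other genes of both complexes were described as lists. Of 9 other PRC2 genes, 7 had a mean normalised count above 10 and 0 were called in either direction, with a median log2 fold change of 0.08. *Rbbp7*, at 307 ± 122 TPM in controls (SD, n = 6), exceeded its paralog *Rbbp4* at 81.6 ± 20.6, both histone-binding chaperones in the PRC2 core. *Aebp2*, a cofactor, was at 135 ± 28.9 TPM. The list ran from -0.64 ± 0.35 (SE) for *Lcor* to 0.86 ± 0.61 for *Ezhip* (AU022751), an inhibitor of EZH2, with DESeq2 adjusted p of 0.483 and 0.630.

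Of 30 other PRC1 genes, 26 passed the count minimum, 0 were called, 16 were below 0 and 10 above, and the median was -0.13. *Pcgf5* was the lowest of them. Of genes for chromodomain proteins that read the PRC2 mark, *Cbx7* was at 6.26 ± 5.01 TPM in controls, *Cbx8* at 1.07 ± 0.70, *Cbx2* at 0.53 ± 0.44 and *Cbx6* at 0.11 ± 0.25 (SD, n = 6 each). The Polyhomeotic genes *Phc1*, *Phc2* and *Phc3* summed to 11.6 ± 4.68 TPM. Of the subunits of variant PRC1, *Rybp* was at 30.9 ± 14.6 TPM and its paralog *Yaf2* at 5.52 ± 2.51, and *Kdm2b* made up 94.8% of the TPM of *Kdm2a* and *Kdm2b* together.

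Of 6 enzymes that oppose Polycomb, 5 passed the count minimum and 0 were called. They ran from -0.07 ± 0.24 (SE) for the H3K27 demethylase *Kdm6b* to 0.45 ± 0.28 for the H2A deubiquitinase *Bap1*, with a median of 0.14. The Hox genes, classical targets of Polycomb, had low values in both groups. None of 39 Hox genes had a mean normalised count above 10, 19 were at 0 in every embryo and 33 stayed below 1 TPM in every embryo, and the 39 summed to between 1.24 and 7.34 TPM in controls and 2.06 and 4.04 in mutants. Of 5 genes imprinted through maternal H3K27me3, 0 were called, 4 were above 0 and 1 below, from *Jade1* (-0.64 ± 0.41 SE) to *Sfmbt2* (1.88 ± 2.24 SE), with a median of 0.98. Their levels were low, 11.2 to 17.5 TPM in sum in controls and 14.0 to 21.0 in mutants.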

How the data were processed

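Reads were mapped by the authors to GRCm38 with STAR and quantified with RSEM. For 11 embryos the deposited tables hold expected counts, TPM, FPKM and the effective length of 54146 genes. The authors' deposited comparison table (fold changes and p-values) was not used. Libraries carried no molecular identifiers, and the protocol does not mark strand. Groups came from the genotype labels. Batches were read from codes in the sample titles with the help of the extraction protocol, so they are a reading and not a label. Expected counts were rounded and tested with DESeq2 (version 1.42.0, batch and group terms, Benjamini-Hochberg adjustment over all genes), and a call also required a baseMean (mean normalised count) above 10. The edgeR (4.0.16) quasi-likelihood test, limma (3.58.1) on log2(TPM + 1), other filters, scalings and covariates, single batches and leaving out embryos in turn were the alternatives. Intervals are 1.96 SE on each side. Coordinates came from a GENCODE annotation and promoters from RefSeq. The tests were run on simulated data beforehand. Named genes were the 10 members, *Prdm10*, listed paralogs, called genes of the wider lists and their highest and lowest fold changes (1 of these genes is not reported here). *Eed*'s position on the list of bound genes came from the study's supplement. The members and lists were chosen with earlier results of these data known.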

Additional observations from a re-analysis of the deposited data

Results flagged for a closer look

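For each of the 10 genes, the highest and lowest TPM of the 6 controls and of the 5 mutants were set against the others, 20 groups in all, of which chance is expected to mark about 1. The *Bmi1* TPM of control replicate 1 stood apart at 64.65, against 13.4 to 24.9 in the other 5 controls. The gap to the nearest control was 0.776 of the whole range.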

How the results depend on the processing

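Calls over all genes numbered 151 in the DESeq2 fit, 32 in edgeR, 18 in limma on log2(TPM + 1), 51 without a batch term, 78 in batch 1 alone and 48 in batch 2 alone, and 90 to 265 when 1 embryo was left out. Of the 10 Polycomb genes 0 were called, 1 in batch 1 alone and 0 to 2 with 1 embryo left out (*Bmi1*, and *Eed* without control replicate 2). The interaction called 4 genes, 0 in edgeR and 0 to 22 with 1 embryo left out. Batch called 2911 genes and 4 Polycomb genes, 1498 and 2 in control embryos alone. Effective length called 0 genes, 2 with a baseMean above 100 and 0 to 1 with 1 embryo left out. In the order of levels 0 neighbouring pairs passed, and 5 with all 11 embryos, which include the controls that set the order.

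Some log2 fold changes near 0 changed sign, and the cause was not tested. *Suz12* was 0.04 and became -0.036 in limma on log2(TPM + 1), -0.014 in batch 1 alone and -0.013 with an effective-length offset, and ran from -0.0504 (without mutant replicate 4) to 0.136 with 1 embryo left out. *Rnf2* was 0.07 and became -0.0282 in limma on log2(TPM + 1), and ran from -0.162 (without mutant replicate 1) to 0.239 with 1 embryo left out. *Ring1* was 0.11 and became -0.389 in batch 2 alone, and ran from -0.235 (without mutant replicate 4) to 0.528 with 1 embryo left out. *Ezh2* was 0.05 and ran from -0.0162 (without control replicate 6) to 0.118. The *Rnf2* to *Ring1* ratio moved from -0.22 to 0.0367 without mutant replicate 3, and its lowest value with 1 embryo left out was -0.493. *Ezh1*, *Eed*, *Jarid2*, *Bmi1*, *Pcgf6* and *Kdm2b* kept their direction under all 20 alternatives run for each. No paired analysis was possible because replicates were numbered in accession order within groups and the numbers pair no embryos. Depth was lowest for *Ring1*, whose normalised counts lay between 3.02 and 49.2.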
